A study of Mus musculus with 12 samples.

Results

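This account covers the genes of voltage-gated and related ion channels in the lung: potassium channels (symbols beginning Kcn), voltage-gated calcium channels (Cacna, Cacnb and Cacng) and voltage-gated sodium channels (Scn followed by a digit). The rule takes the symbol alone among the protein-coding genes of the deposited count table, and 134 of its 55487 genes qualified. They fall into 40 pore-forming and 13 accessory subunits of voltage-gated potassium channels, 12 calcium- or sodium-activated potassium channel genes, 15 inward rectifiers, 14 two-pore leak channels, 10 pore-forming and 16 accessory calcium channel subunits, and 10 pore-forming and 4 accessory sodium channel subunits. RNA-seq was run on whole lungs of C57BL/6J mice at postnatal day 21. All 12 mice were miR-30a -/-, from 1 line in which the whole miR-30a gene had been removed by CRISPR/Cas9 editing, so no lung here carries an intact miR-30a. The 4 groups held 3 lungs each: males and females kept in room air, and males and females that breathed 95% oxygen from postnatal day 1 to 5 and then recovered in room air. Pups of several litters were pooled before they were assigned to an exposure, and the labels do not tie a lung to a litter. Lungs are called here by group and by the number in their label.

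A voltage-gated channel opens a pore when the membrane depolarises, and the ion it lets through sets the effect: sodium and calcium bring positive charge in, whereas potassium carries it out and restores the resting voltage. Two-pore leak channels and inward rectifiers hold that resting voltage, and accessory subunits change how fast, how often or where a pore opens. In the lung these channels are best known from pulmonary artery smooth muscle, where potassium channels oppose and L-type calcium channels drive contraction, and from epithelium, where potassium efflux supports the transport of salt and water. Whole lung mixes these cells, and in such samples fewer cells of a type and less RNA per cell cannot be told apart.

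The microRNA that all 12 lungs lack is shown first because it is the common background of the experiment, with the RefSeq sequences (GRCm38.p6) of miR-30a-5p and of 2 family members. The capitals mark the seed, bases 2 to 8, which is the same in all 3.
mmu-miR-30a-5p: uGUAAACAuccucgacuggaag
mmu-miR-30c-5p: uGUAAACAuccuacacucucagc
mmu-miR-30e-5p: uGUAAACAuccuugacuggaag
The locus of miR-30a-5p is chr1:23272274-23272295 on the plus strand. For miR-30c-5p the locus taken was Mir30c-2, close by on the same strand at chr1:23291714-23291736, and for miR-30e-5p it was Mir30e on chromosome 4. Any other locus of the same mature sequence was not listed. The 7-base match to the seed, TGTTTAC on the sense strand, stood in the longest annotated 3′ UTR of 21 of the 134 channel genes (15.7%) and of 13.8% of 21022 genes. The channel genes have longer UTRs, with a median of 1786 bases against 961 for all genes, and their density of matches was 0.0861 per kb against 0.113 per kb. The sodium channel genes Scn3a, Scn2a, Scn1a and Scn9a, which lie together on chromosome 2, each held a match that the letters agcct follow directly. These windows are shown with the seed match in capitals, each read on the strand of its gene.
Scn3a, chr2:65460460-65460487, minus strand: ttgtaatcaatTGTTTACagcctctgaa
Scn2a, chr2:65764883-65764910, plus strand: ttgtgatcaacTGTTTACagcctgtgtt
Scn1a, chr2:66272828-66272855, minus strand: gggtgacaaatTGTTTACagcctgtgaa
Scn9a, chr2:66483382-66483409, minus strand: ttttgatacacTGTTTACagcctgcgaa
The fifth sodium channel gene of that cluster, Scn7a, held no match. A match is a string of letters and not a measured target site, and without lungs that carry miR-30a nothing about its effect on these genes can be read from the counts.

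The libraries held 8763033 to 16741694 counted reads. A background of reads was present in every lung: the 1488 olfactory and vomeronasal receptor genes, which serve smell, took 0.410% to 0.945% of all reads, and their median density ranged from 0.681 reads per kb of exon in each 1000000 reads in room air female 5 to 1.62 in hyperoxia male 2. Most of these genes have no known use in lung; a few, such as Olfr78, have been described there, and none was left out of the set. The repeat-like gene Gm10800 took 6.04% to 23.8% of the reads. Background density was 1.27 ± 0.275 in hyperoxia and 1.14 ± 0.331 in room air (SD, n = 6 each), a ratio of 1.12 (two-sided exact permutation test, p = 0.450). Within females the ratio was 1.41 (exact p = 0.200) and within males 0.915 (exact p = 0.800), in designs where the smallest possible p is 0.100. Room air male 1 stood apart in another way: the summed level of 11 skeletal muscle markers was 6351 counts in each 1000000 (CPM) there and 401 to 645 CPM in the other lungs.

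The density of each channel gene was set against this background. Each gene's reads per kb of exon, averaged over the lungs, were divided by the density of the receptor genes: 68 members reached 3 times the background, 56 lay between 1.5 and 3 times and 10 lay under 1.5 times. The members nearest the line were Scn8a (3.01), Kcne4 (3.04) and Cacng3 (3.04) above it, and Kcng1 (2.98), Kcnj9 (2.97) and Scn2b (2.85) below it. This ratio moved with base composition. The exons of the members have a median GC content of 52.8% against 39.7% for the receptor genes, and 29 of the 44 members richest in GC but 17 of the 45 poorest were above 3 times. Genes of the lens, rods, exocrine pancreas and hair, which are best known from those tissues, had median ratios of 2.76 to 3.20 by the same measure. When each member was instead set against receptor genes of its own GC content, a measure added after the data were seen, the median ratio of the members was 1.40 in place of 3.02, and 13 members stayed at 3 times or more. For 79 members GC lay above the 99th percentile of the receptor genes, so that their background was taken at that limit.

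**Figure D1:**
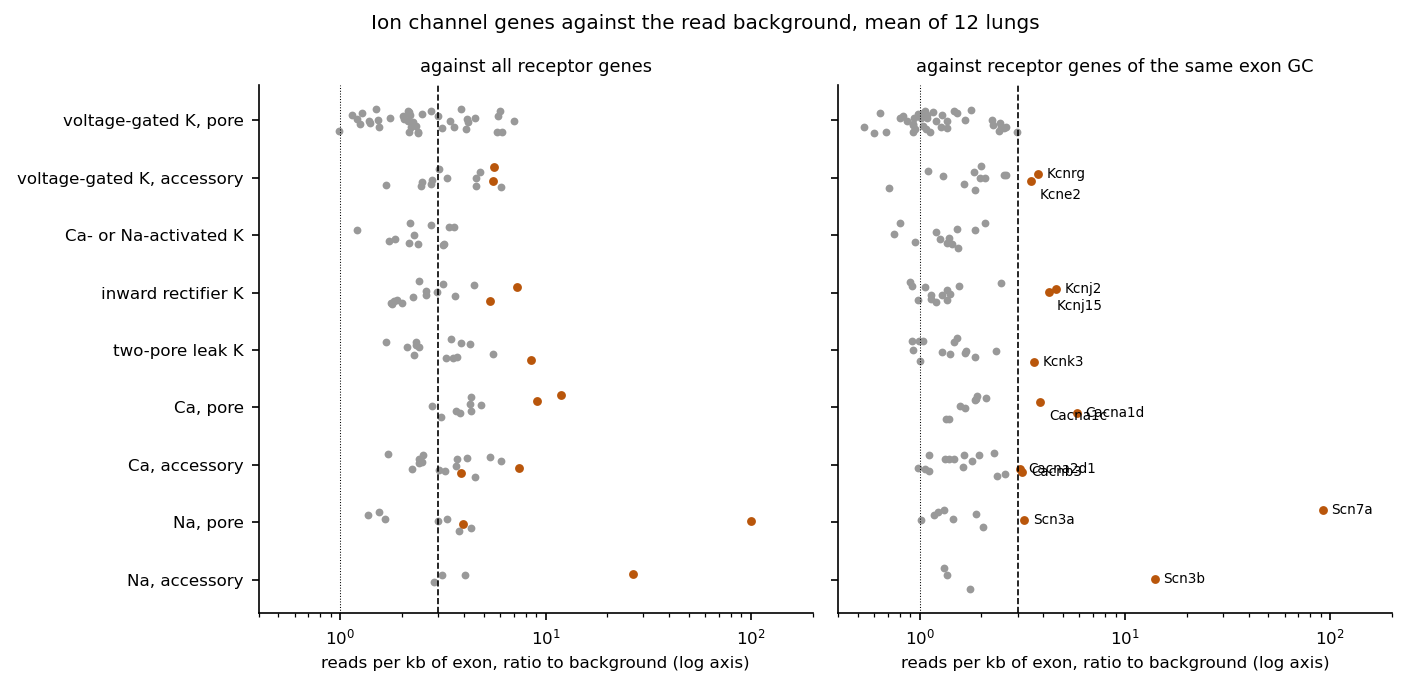
Ratio of each member's read density (reads per kb of exon) to the receptor background, on a log axis, by structural class; each point is 1 gene averaged over 12 lungs (2 members are not shown), the dotted line marks 1 and the dashed line 3. Against receptor genes of the same GC (right) the members in orange lie at 3 or more, with Scn7a at 92.3 and Scn3b at 14.

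None of the 12 calcium- or sodium-activated potassium channel genes was among the 13 members clear of the GC-matched background, 12 of which are described here. Scn7a stood far above the rest. It encodes a sodium channel relative that senses extracellular sodium rather than voltage, and its level was 107 CPM per kb of exon, or 92.3 times its background. Next came Scn3b, a sodium channel beta subunit, at 28.7 CPM per kb and 14 times. A pair of L-type calcium channel pores followed, Cacna1d at 13 CPM per kb (5.84 times) and Cacna1c, the pore of smooth and cardiac muscle, at 10.1 CPM per kb (3.88 times), with the accessory subunits Cacnb3 (8.32 CPM per kb, 3.17 times) and Cacna2d1 (4.34 CPM per kb, 3.08 times). Among the potassium channels, the inward rectifiers Kcnj2 (5.73 CPM per kb, 4.61 times) and Kcnj15 (7.91 CPM per kb, 4.25 times), the acid-sensitive leak channel Kcnk3 (9.30 CPM per kb, 3.6 times), the beta subunit Kcne2 (6.03 CPM per kb, 3.50 times) and the assembly regulator Kcnrg (6.23 CPM per kb, 3.79 times) were clear. Scn3a, a sodium channel pore best known from developing neurons, was clear at 4.42 CPM per kb and 3.24 times. Exons of Cacna1d, Kcnj15 and Kcnk3 overlap those of another annotated gene, and since the strand setting of the counting is not given in the sources used here, part of their reads may belong to that gene.

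Several channels named in textbooks on the pulmonary circulation were not clear of the background in whole lung. Kcna5, a voltage-gated pore of pulmonary artery muscle, reached 2.39 times the receptor density and 1.03 times at its GC. Kcnma1 and Kcnmb1, pore and beta subunit of the large-conductance calcium-activated channel, reached 2.30 and 2.40 times, and 1.26 and 1.43 at their GC. Kcnj8, the pore of the vascular ATP-sensitive channel, reached 3.15 and 1.35 times, and Kcnn3, a small-conductance channel of endothelium, 2.77 and 1.52 times. Kcnq1, an epithelial and cardiac pore, lay just under the line at 7 and 2.98 times. A ratio near 1 says that these libraries do not separate a gene's own transcripts from the background, not that the gene is silent.

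Hyperoxia against room air over both sexes asked which channel genes differed at day 21, after recovery. No member passed an adjusted p of 0.05 with a fold over 1.5 (edgeR quasi-likelihood test), beside 0.0415% of the 45828 genes tested; DESeq2 and the likelihood ratio test also called 0 members. At an unadjusted p under 0.05, 3 members were higher and 3 lower, or 2.24% of members in each direction, against 2.67% and 2.52% of all genes. The 3 lower ones, Kcnj2, Scn3a and Kcnrg, belong to the 13 clear members, and the 3 higher ones, Kcnf1, Cacng2 and Scn9a, lay at 0.934 to 1.01 times their GC background. The median log2 change was 0.05 over all members and 0.03 over all genes.

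Scn3a was the single member whose 6 hyperoxia lungs did not overlap the 6 room air lungs; 0.12% of all genes were lower without overlap and 0.0938% higher. In room air its level was 55.8, 71.1 and 53.5 CPM in males 1, 4 and 5 and 72.5, 62.1 and 61.2 CPM in females 2, 5 and 6. After hyperoxia it was 49.1, 45.4 and 43.3 CPM in males 1, 2 and 3 and 47.5, 47.5 and 51.8 CPM in females 2, 4 and 5. Every hyperoxia lung was thus below every room air lung, in either sex. The log2 change over both sexes was -0.40 ± 0.12 (SE), with an adjusted p of 0.718, so it did not pass the test over all genes. It was -0.42 ± 0.17 in females and -0.39 ± 0.17 in males, where it was -0.24 without room air male 4. Of the reads of Scn3a, 31.7% equal the background at its GC, and with that background subtracted the log2 change was -0.48 to -0.52 over both sexes, depending on the background used. With the receptor share of each lung in the fit the value was -0.37 with an adjusted p of 0.00203, under the fold of 1.5; over the settings tried, the adjusted p ran from 6.28e-06 with RUVr factors, a removal of variation estimated from residuals that the study's methods name, to 1.00.

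Kcnj2, which encodes the inward rectifier Kir2.1 that sets the resting voltage of endothelium and striated muscle, had the smallest p of the members. Its level was 44.4, 62.0 and 36.7 CPM in room air females 2, 5 and 6 against 22.9, 31.1 and 29.5 CPM in hyperoxia females 2, 4 and 5. In males it was 25, 26 and 26.5 CPM in room air and 25.5, 20.6 and 24.2 CPM after hyperoxia. The room air females were above all other lungs, and the 3 remaining groups overlapped. The log2 change was -0.78 ± 0.17 (SE) in females, from 47.7 ± 13 to 27.8 ± 4.32 CPM (SD, n = 3), with an adjusted p of 0.151, and -0.14 ± 0.17 in males; over both sexes it was -0.46 ± 0.12 with an adjusted p of 0.454. The call in females turned on the method: Kcnj2 passed with the likelihood ratio test, with DESeq2, with RUVr factors and when the 6 female lungs were fitted alone; with the receptor share of each lung in the fit it did not, at -0.52. Without room air female 5 the value was -0.55, and over the settings tried the adjusted p ran from 4.02e-06 to 0.836. The summed level of 10 cardiac muscle markers, none of them at 0 in any lung, was 368 to 408 CPM in room air females and 263 to 278 CPM in hyperoxia females. In males it was 423, 256 and 314 CPM in room air males 1, 4 and 5, whose Kcnj2 levels lay within 25 to 26.5 CPM, and 242 to 282 CPM after hyperoxia. The mean sum of endothelial markers was 2511 CPM in room air females and 1881 CPM in hyperoxia females, and 1982 and 2025 CPM in males. In females the mean sums of the other marker lists were also lower after hyperoxia, apart from neurons and glia and neuroendocrine cells. The part of any cell type in the Kcnj2 values was not tested.

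**Figure D2:**
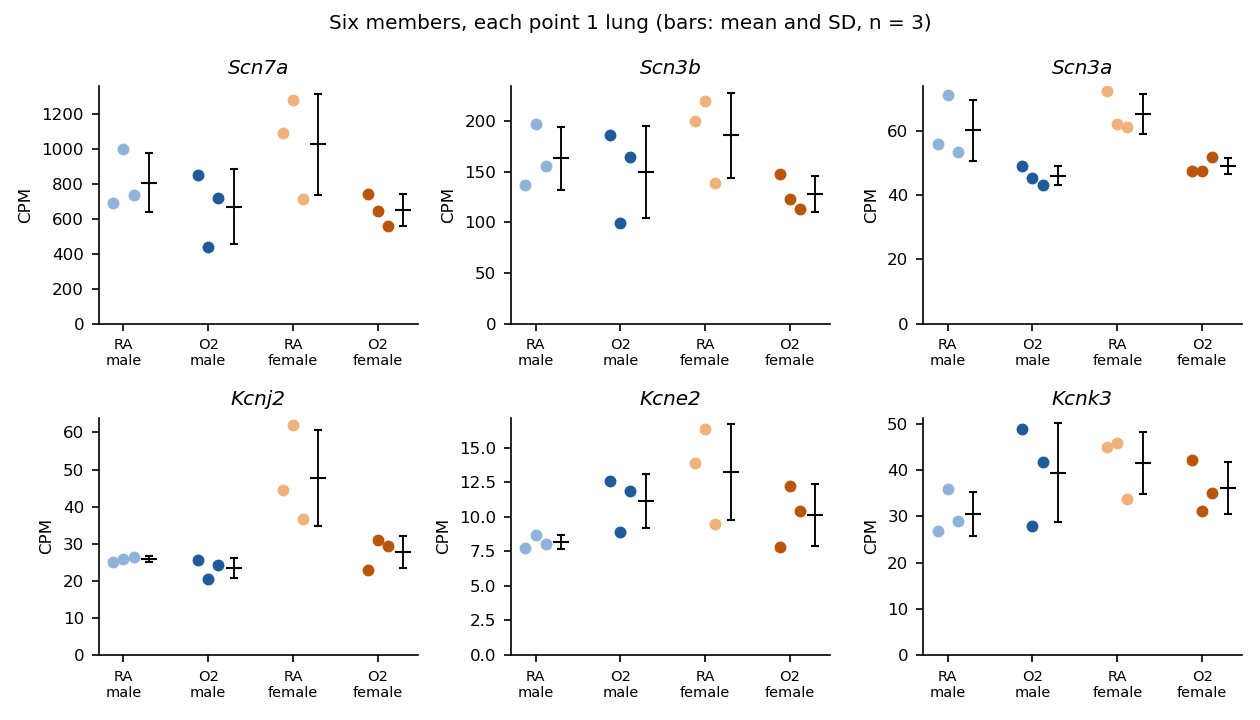
Level of 6 members in CPM (vertical axis, from 0) in each lung by exposure (RA, room air; O2, hyperoxia) and sex; points are lungs and bars give the mean and SD of 3 lungs. Scn3a is lower in every hyperoxia lung, and the room air females stand above the other groups for Kcnj2.

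Scn7a and Scn3b, the members of highest level per kb of exon, varied widely within groups. Scn7a was at 688, 998 and 734 CPM in room air males 1, 4 and 5, at 1088, 1281 and 713 CPM in room air females 2, 5 and 6, at 852, 436 and 721 CPM in hyperoxia males 1, 2 and 3, and at 744, 646 and 561 CPM in hyperoxia females 2, 4 and 5. The lowest lung was hyperoxia male 2, the lung with the largest share of reads on receptor genes, and the highest was room air female 5, the lung of lowest background. Its log2 change over both sexes was -0.46 ± 0.23 (SE), with an adjusted p of 0.927, and the groups overlapped. Scn3b ran from 99.4 CPM in hyperoxia male 2 to 220 CPM in room air female 5, the same 2 lungs, with a log2 change of -0.33 ± 0.18 and an adjusted p of 0.927. With the receptor share in the fit the values were -0.26 for Scn7a and -0.15 for Scn3b, and without hyperoxia male 2 Scn3b was at -0.22.

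In females, hyperoxia against room air left no member past the test, beside 0.00218% of all genes, or 1 gene. DESeq2 and the likelihood ratio test each called 1 member, Kcnj2, beside 0.194% and 0.159% of all genes. RUVr with 1, 2 or 3 factors called 4 (Kcnh8, Kcnj2, Scn7a and Scn9a), or 2.99% of members, beside 4.15%, 4.21% and 4.46% of all genes. At an unadjusted p under 0.05, 10 members were higher and 4 lower, 7.46% and 2.99% of members, against 7.32% and 5.28% of all genes. The direction followed the level. All 13 clear members were fitted lower, with a median log2 change of -0.33 and a range from -0.78 to -0.10, and the 4 lower ones past p 0.05 (Kcnj2, Kcnrg, Scn3a and Scn3b) were among them. The 10 higher ones (Kcnh8, Scn9a, Kcnf1, Scn1a, Kcns2, Kcnip1, Kcnq3, Kcnn1, Kcnb2 and Kcnma1) all lay at 0.799 to 1.36 times their GC background.

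Other genes split by level in the same comparison. Of 5955 autosomal protein-coding genes at 3 times their GC background or more, 3.36% were fitted higher in hyperoxia females, with a median log2 change of -0.33, and of 1415 receptor genes 96.1% were fitted higher, with a median of 0.45 and 27.8% past p 0.05. The medians of the marker lists in females were -0.58 for airway epithelium, -0.51 for alveolar type 2, -0.46 for alveolar type 1, -0.43 for endothelium, -0.42 for cardiac muscle, -0.38 for fibroblasts, -0.34 for mesothelium, -0.25 for pericytes, -0.19 for smooth muscle, -0.18 for lymphocytes and -0.10 for macrophages. They were 0.20 for neurons and glia, 0.25 for skeletal muscle and 0.27 for neuroendocrine cells. No marker of these 14 lists was at 0 in any lung. With the receptor share of each lung in the fit, the median of the 13 clear members in females was 0.03 and 6 of them were lower; with the GC-matched background subtracted it was -0.08 and 7 were lower, and with the receptor density subtracted without regard to GC it was -0.19 and 10 were lower. The median thus lay nearer to 0 with each of these terms, while the lowest member was still at -0.52, -0.61 and -0.77 in turn; what part the background plays in single genes was not tested.

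**Figure D3:**
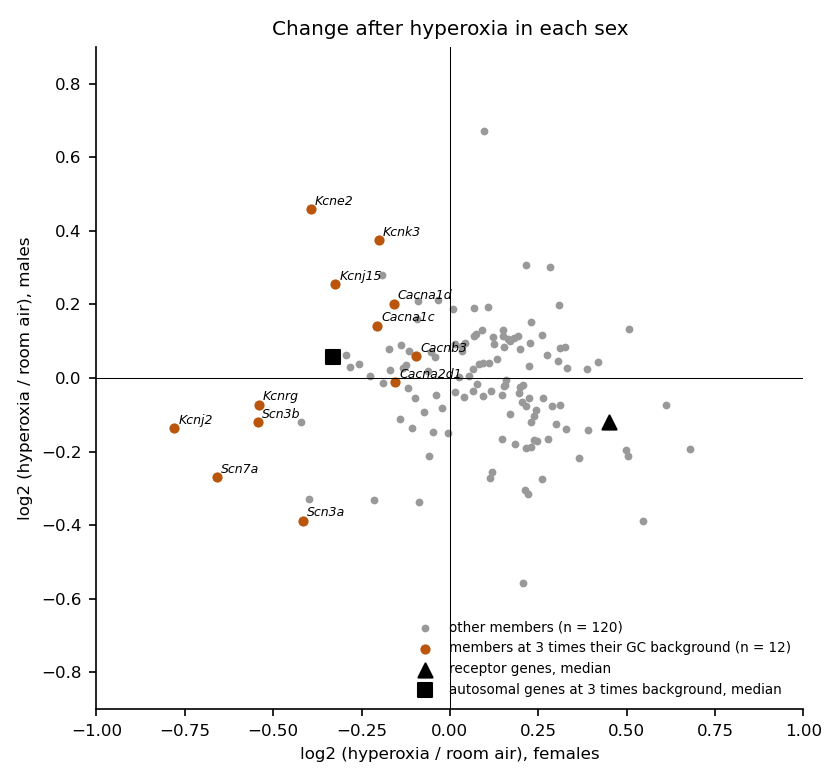
Log2 ratio of hyperoxia to room air in females (horizontal) and males (vertical) for the members (2 are not shown), with the clear members in orange. The black triangle is the median of the receptor genes and the black square that of 5955 autosomal protein-coding genes clear of the background; the clear members shown lie on the side of the square, left of 0.

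Kcnma1, the large-conductance calcium-activated channel that relaxes smooth muscle, differed in direction from the clear members in females. It was at 38.8, 34.4 and 45.2 CPM in room air females and at 45.9, 53.4 and 53.2 CPM in hyperoxia females, without overlap. In males it was at 56.2, 45 and 50.3 CPM in room air and at 35.1, 52.4 and 43.0 CPM after hyperoxia. The log2 change was 0.37 ± 0.17 in females (adjusted p = 0.392) and -0.22 ± 0.17 in males. With the receptor share in the fit the female value was 0.08, and leaving out 1 lung moved the male value from -0.36 (without hyperoxia male 2) to -0.08 (without hyperoxia male 1). Without overlap between the female groups, 17 members were higher and 6 lower after hyperoxia, 12.7% and 4.48% of members, against 10.8% and 6.42% of all genes, and none of the 17 was a clear member. In males 4 were higher and 2 lower without overlap, against 2.73% and 3.89% of all genes.

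In males no member and no gene passed the test (0% of all genes), and DESeq2 and the likelihood ratio test called 0 members as well. At an unadjusted p under 0.05 Kcne2 was higher and Scn3a and Kcnv1 were lower, 0.746% and 1.49% of members, against 0.899% and 1.8% of all genes. Kcne2, a small subunit that pairs with several potassium channel pores and is known from epithelia, was at 7.72, 8.70 and 8.03 CPM in room air males and at 12.6, 8.93 and 11.9 CPM in hyperoxia males, without overlap. In females it was at 13.9, 16.3 and 9.48 CPM in room air and 7.78, 12.2 and 10.4 CPM after hyperoxia. The log2 change was 0.46 ± 0.20 in males and -0.39 ± 0.20 in females, and neither passed over all genes. The female value was -0.21 without room air female 5, -0.24 without hyperoxia female 2 and -0.08 with the receptor share in the fit. Kcnk3, the leak channel TASK-1 of pulmonary artery muscle, was at 26.8, 36 and 29 CPM in room air males and at 48.9, 27.9 and 41.8 CPM in hyperoxia males, which overlap, with a log2 change of 0.37 ± 0.19 (adjusted p = 1.00); it was 0.20 without hyperoxia male 1 and 0.58 without hyperoxia male 2.

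The difference between the sexes in the response, tested as an interaction, called no member and 0% of all genes; DESeq2 and the likelihood ratio test called 0 members. RUVr with 1, 2 or 3 factors called 8 members, beside 4.58%, 4.79% and 5.2% of all genes. At an unadjusted p under 0.05, 9 members had a higher and 4 a lower change in females, 6.72% and 2.99% of members, against 6.06% and 2.4% of all genes. Of these 4, Kcne2 had the most negative value, -0.85 ± 0.28 on the log2 scale, with an adjusted p of 0.578, followed by Kcnj2 at -0.64 ± 0.24 and Kcnk3 at -0.58 ± 0.27. All 13 clear members had a negative value, with a median of -0.42, beside a median of -0.39 over the 5955 autosomal genes clear of the background and 0.57 over the receptor genes. With the receptor share of each lung in the fit their median was -0.00407 and 7 were negative, with the GC-matched background subtracted it was -0.08 and 8 were negative, and with the receptor density subtracted it was -0.15 and 11 were negative. In the fit with the receptor share Kcne2 was at -0.46, Kcnj2 at -0.32 and Kcnk3 at -0.09. The 9 higher members lay at 0.799 to 1.30 times their GC background.

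Sums over sets of members were set beside the background of each lung. The 74 members under 1.5 times their GC background summed to 969 CPM in room air female 5, the lung of lowest background, and to 1348 CPM in hyperoxia male 2. The 12 clear members other than Scn7a ran the other way, from 1118 CPM in room air female 5 to 687 CPM in hyperoxia male 2. The 3 lungs of lowest background, room air females 2 and 5 and hyperoxia male 1, had the 3 lowest of the first sums and the 3 highest of the second. These 3 lungs come from different groups, 2 of room air females and 1 of hyperoxia males. The 74 members were picked for lying near the receptor density of these same lungs, so their sum was likely to follow it from the outset. CPM are shares of a total, so clear members tend to fall where the others rise. What the background does to single genes was not tested by these sums.

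**Figure D4:**
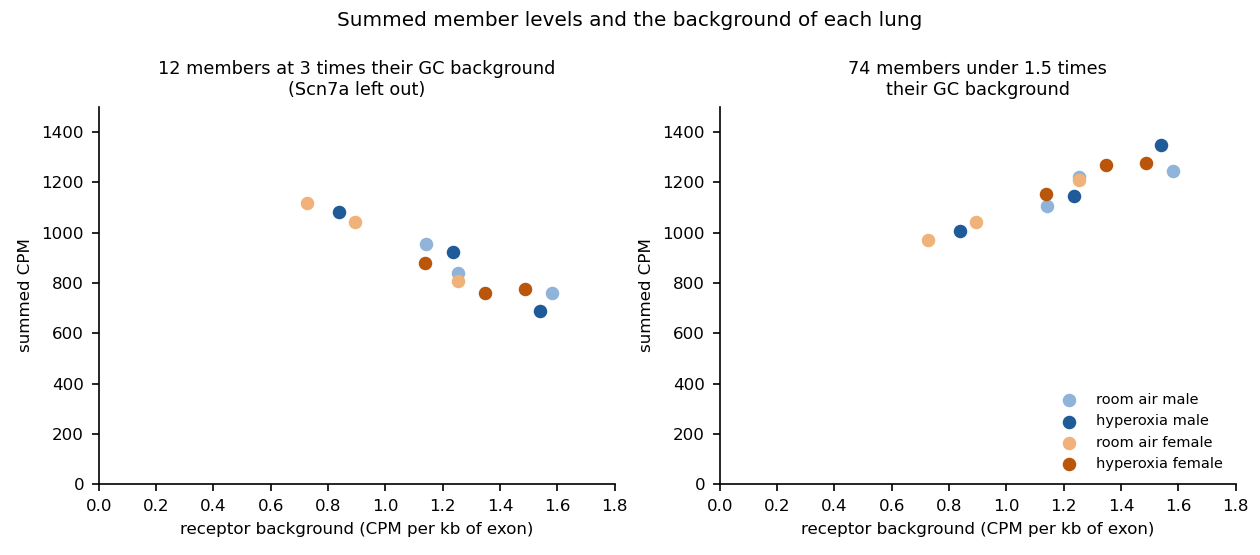
Summed CPM of the 12 clear members other than Scn7a (left) and of the 74 members under 1.5 times their GC background (right) in each lung, against the receptor background of that lung in CPM per kb of exon. Within each of the 4 groups the clear members are lower in the lungs of higher background, apart from the order of hyperoxia females 4 and 5. The 74 others, which were picked for lying near that background, are higher.

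Females against males over both exposures gave the only calls among the members in the quasi-likelihood test. Cacna1f, Kcnd1 and Kcne1l were higher in females, 3 of 134 members, beside 1.22% of all genes; they are the 3 members on the X chromosome. At an unadjusted p under 0.05, 5 members were higher and 6 lower in females, 3.73% and 4.48% of members, against 4.05% and 2.83% of all genes. Cacna1f, the L-type pore of photoreceptors, was at 19.7, 19 and 23.4 CPM in room air males and 17.4, 26.9 and 23.2 CPM in hyperoxia males, and at 39.4, 34.2 and 46.7 CPM in room air females and 47.8, 47.1 and 42.4 CPM in hyperoxia females. All 6 females were above all 6 males, as they also were for Kcnd1, a fast inactivating potassium channel pore, and Kcne1l, a potassium channel beta subunit; among all genes 0.886% were higher in females without overlap and 0.312% lower. In the other direction 2 members, Kcnc4 and Kcnj11, were lower in all 6 females than in all 6 males, or 1.49% of members. The log2 differences of Cacna1f, Kcnd1 and Kcne1l were 0.99 ± 0.12 (adjusted p = 5.02e-06), 0.81 ± 0.12 (adjusted p = 0.000124) and 1.25 ± 0.22 (adjusted p = 0.000943). Kcne1l rested on few reads, with as few as 9 counts in a lung, and with at least 10 counts required in every library it was not tested. With the receptor density subtracted Kcnd1 lost its call (adjusted p = 0.166). With the GC-matched background subtracted 112 members passed the filter on low counts and Kcne1l was not among them.

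These 3 genes were at or near the background, at 1.34, 0.933 and 0.710 times the density at their GC. Of 9 X-linked receptor genes, 8 passed the filter on low counts and were fitted higher in females, with a median log2 difference of 0.95 and a range from 0.56 to 1.00. Of 539 X-linked protein-coding genes under 1.5 times their GC background, 447 passed the filter and were fitted higher in females, with a median of 0.83, whereas the 29 X-linked genes at 10 times their background or more had a median of 0.22. The 131 autosomal members had a median of -0.05. Whether the counts of the 3 genes come from transcripts of those genes was not tested.

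**Figure D5:**
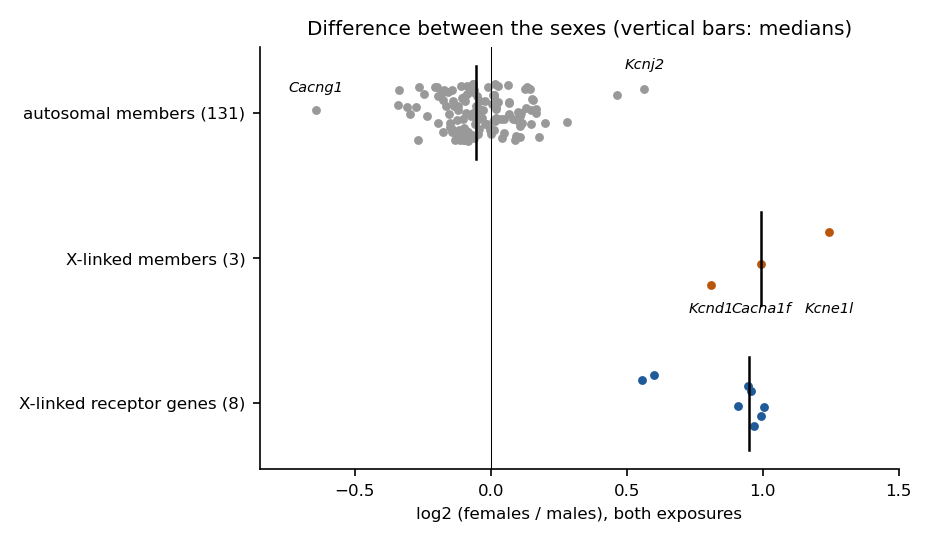
Log2 ratio of females to males over both exposures for autosomal members, X-linked members and X-linked receptor genes; points are genes and vertical bars are medians. The 3 X-linked members, from 0.81 to 1.25, are above 0 like the 8 X-linked receptor genes, and Kcne1l, at 1.25, lies beyond the highest of these, at 1.00.

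Kcnj2 was the autosomal member with the smallest p between the sexes. It was at 37.8 ± 13.9 CPM in females and 24.6 ± 2.14 CPM in males (SD, n = 6), a log2 difference of 0.56 ± 0.12 with an adjusted p of 0.00998, and was left uncalled because its fold was under 1.5; over the other settings tried the value ran from 0.45 to 0.67 and the adjusted p from 1.08e-05 to 0.0498. It was called where the fitted fold exceeded 1.5: with DESeq2, with either background subtraction, and without room air female 2, room air female 6, hyperoxia male 1 or hyperoxia female 2. Hyperoxia females overlapped the males. Cacng1, a calcium channel subunit of skeletal muscle, had a log2 difference of -0.64 ± 0.19 (adjusted p = 0.108). Its highest lung was room air male 1, at 11.2 CPM against 3.24 to 7.29 CPM in the others, the lung with the raised skeletal muscle markers; without that lung the difference was -0.44 (adjusted p = 0.619). It was called lower in females with RUVr (smallest adjusted p = 0.00136), without room air male 4 (adjusted p = 0.0246) and without hyperoxia male 1 (adjusted p = 0.0252).

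Genes that work with the channels, taken from a list of 38 that hold no member (ATP-sensitive channel receptors, pacemaker channels, intracellular calcium release channels, ankyrins and others), were likewise without a call between the exposures. Over both sexes 0 were higher and 1 lower at an unadjusted p under 0.05, 0% and 2.63% of the list against 2.67% and 2.52% of all genes, and their median log2 change was -0.02. In females 2 were higher, Dpp10 (0.44) and Lrrc38 (0.51), and 3 lower, among them Calm3 (-0.52) and the proton channel Hvcn1 (-0.37), or 5.26% and 7.89% of the list against 7.32% and 5.28% of all genes. Between the sexes 1 was called, beside 1.22% of all genes, the X-linked Fgf13, with a log2 difference of 0.98 in females over males.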

How the data were processed

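Whole-lung RNA was rRNA-depleted before library preparation per the labels. The authors trimmed reads with Trim Galore, aligned them to mm10 (GRCm38) with STAR and deposited featureCounts gene counts; versions, the strand setting and whether these counts carry the ComBat-Seq batch adjustment of the study's methods are not given in the sources used here. Counts were fitted with edgeR 4.0.16 (robust quasi-likelihood fit of 4 groups, upper-quartile normalization, filterByExpr, 45828 of 55487 genes), p-values were Benjamini-Hochberg adjusted over all genes, and calls needed an adjusted p under 0.05 and a fold over 1.5. CPM use the same scaling. Annotation was GENCODE M21, which held all 134 members; exons of 39 overlap those of another gene. All 134 passed the filter. Alternatives included DESeq2 1.42.0 and RUVr (deviance residuals). The fit was also run on simulated counts, and the outcome of that run is not reported here. Labels do not say that lungs of a group come from separate litters, so p-values measure the spread between these lungs. Genes were named as the 10 highest members above 3 times the receptor density and, among the members above it, those of smallest p in each comparison. Also named were 16 channels known from lung vessels, airway or blood cells and those next to the threshold. Others that spell out a count were named after their values were seen. A few named genes are not reported here. The members and lists were chosen with earlier results of these data known.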

Additional observations from a re-analysis of the deposited data

How the results depend on the processing

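Against 0 members called in females, the likelihood ratio test, DESeq2 and a fit of the 6 lungs alone each gave 1, RUVr with 1, 2 or 3 factors gave 4, and leaving out 1 lung gave 0 to 3; without room air female 6 the calls were Kcnj2, Scn1a and Scn9a, and without hyperoxia male 2 Kcnj2 alone. For the difference between the sexes in the response RUVr with 1, 2 or 3 factors gave 8 against 0. Between females and males, leaving out 1 lung gave 3 to 5 against 3, with 5 without hyperoxia male 1. The cause was not tested. The 68 members at 3 times the receptor density became 109 at 2 times and 20 at 5 times, and 13 at 3 times and 32 at 2 times the GC-matched background; leaving out 1 lung gave 64 to 70. Of 1058 alternative values for 41 single-gene differences, 1030 stayed on their side of the threshold, 27 passed it anew, 1 lost its call (Kcnd1 between the sexes) and 0 changed sign. Most of the 41 were chosen for a small p and had no call in the main fit, so staying mostly meant staying uncalled. Signs outside the 41 did change: of the 13 clear members, all lower in females in the main fit, 6 were lower with the receptor share in the fit. The replicate numbers did not pair the female lungs (correlations of 0.0978 and -0.216 for numbers 2 and 5), and with a replicate block in females the members called numbered 0 over both sexes and 0 in females. The shallowest lung held 8763033 reads, and whether deeper libraries would separate members near 1 times background from that background was not tested.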

Other observations

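The channel pores of skeletal muscle did not share their highest lung. Cacna1s, the voltage sensor of skeletal muscle, was at 52.4 CPM in room air male 1, the lung with the raised muscle markers, and at 26.9 to 43.0 CPM in the other lungs, at 1.90 times its GC background. Scn4a, the skeletal muscle sodium channel, was at 40.0 CPM in room air male 1 but at 46.4 CPM in hyperoxia male 2. The latter is the lung with the largest share of reads on receptor genes, 0.945%, and the part of that background in the Scn4a value was not tested.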
